A study of Mus musculus with 24 samples.

Results

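The 6 long noncoding RNAs Malat1, Neat1, Gas5, Snhg1, Snhg12 and Kcnq1ot1 were followed in primary brite adipocytes, the heat-producing fat cells that arise within white fat, after knockdown of another long noncoding RNA, Ctcflos. The table listed them under 6 of its 52089 gene symbols and 57 of its 168326 transcript entries. Each RNA was represented by 1 entry, the RefSeq noncoding entry with the highest mean level over the 24 libraries. Preadipocytes came from the stromal vascular fraction of inguinal white fat of 129SvEv mice, and all cells were induced and differentiated with rosiglitazone. The study places the transfection after induction, on day 1 of differentiation, so the time comparison covers early differentiation. Cells were reverse transfected with 50 nM of an LNA gapmer directed at Ctcflos (KD), or with the same dose of a nontargeting gapmer (NC), and were harvested 24 h or 72 h later, which gave 4 groups of 6 libraries. A gapmer is a short antisense oligonucleotide whose DNA core directs RNase H to the RNA it pairs with. The labels do not say which of the study's Ctcflos gapmers was used, and all control libraries share 1 nontargeting gapmer, so that an effect of the oligonucleotide itself and an effect of losing Ctcflos cannot be told apart. The study calls the replicates of these groups biological. Neither it nor the labels say whether they came from separate animals or cultures, and p-values measure the spread between these libraries.

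Long noncoding RNAs are transcripts without a protein product, and these 6 are widely used as examples of RNAs that act in the nucleus or carry other RNAs. Malat1 is retained in nuclear speckles, bodies rich in splicing factors, and Neat1 is the scaffold of paraspeckles, bodies that hold RNA-binding proteins. Gas5, Snhg1 and Snhg12 are host genes of small nucleolar RNAs (snoRNAs), which guide the chemical modification of ribosomal RNA. The snoRNAs are cut from their introns, and the spliced hosts belong to the class of genes whose start is a run of pyrimidines and whose spliced RNA is short-lived because it is translated and degraded by nonsense-mediated decay. Kcnq1ot1 is an antisense RNA transcribed from within Kcnq1 on the paternal chromosome, where it silences neighbouring imprinted genes such as Cdkn1c.

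In the GENCODE M21 annotation of GRCm38, Malat1 lies at chr19:5795690-5802672 on the minus strand and Neat1 at chr19:5824708-5845478 on the same strand. Gas5 lies at chr1:161034422-161038539 with 10 annotated snoRNA genes inside it, Snhg1 at chr19:8723475-8726443 with 8, and Snhg12 at chr4:132308623-132311024 with 5, all on the plus strand. Kcnq1ot1 is a single exon of 93092 bases at chr7:143203458-143296549 on the minus strand, within Kcnq1, which is on the plus strand. The handling of strand by the counting is not given in the sources used here, so reads of Kcnq1ot1 and Kcnq1 introns, and of Gas5 and the Zbtb37 end that overlaps it, cannot be told apart.

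The transcription start sequences are shown because a pyrimidine run at the start is a known mark of snoRNA host genes. Each window runs from 40 bases before to 20 after the RefSeq start on GRCm38.p6. Capitals mark the letters TATA 40 to 20 bases before the start, and the longest run of at least 6 C or T that overlaps the stretch from 5 bases before to 15 after it, both read on the strand of the gene.
Snhg1, chr19:8723447-8723506, plus strand: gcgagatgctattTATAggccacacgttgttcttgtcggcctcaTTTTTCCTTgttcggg
Snhg12, chr4:132308638-132308697, plus strand: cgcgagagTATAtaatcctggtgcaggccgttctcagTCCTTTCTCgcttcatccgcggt
Gas5, chr1:161035126-161035185, plus strand: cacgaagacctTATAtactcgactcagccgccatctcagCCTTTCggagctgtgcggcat
Malat1, chr19:5802653-5802712, minus strand: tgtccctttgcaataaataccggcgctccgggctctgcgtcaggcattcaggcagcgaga
Kcnq1ot1, chr7:143296528-143296587, minus strand: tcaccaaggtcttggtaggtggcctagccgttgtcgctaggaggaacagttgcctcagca
All 3 hosts held both features in the windows shown, which 1.9% of the 32851 promoters in the table held. The pyrimidine run, with or without TATA, was found in 28.7%, and TATA, with or without the run, in 5.8%. Gas5 has another start in the table that held neither, and the windows of Malat1 and Kcnq1ot1 held neither. Neat1 had no window in the table.

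The libraries were made by BRB-seq, in which cDNA is primed with oligo-dT and read near its 3′ end, so the sequence at the end of an RNA bears on what is counted. Malat1 ends without a poly(A) tail, and its annotated 6983-base transcript has 1 run of at least 8 A, shown in capitals at positions 6674 to 6685 from the 5′ end. The short form of Neat1 is polyadenylated, and the last AATAAA of the long transcript before the length of the measured entry is shown in capitals at positions 3153 to 3158, followed by the last 60 bases of the 20771-base long form, which ends without a tail.
Malat1 near its 3′ end, chr19:5795978-5796049, minus strand: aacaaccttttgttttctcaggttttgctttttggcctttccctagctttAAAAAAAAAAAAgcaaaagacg
Neat1, positions 3123 to 3182, chr19:5842297-5842356, minus strand: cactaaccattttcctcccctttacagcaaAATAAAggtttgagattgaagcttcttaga
Neat1, last 60 bases of the long form, chr19:5824708-5824767, minus strand: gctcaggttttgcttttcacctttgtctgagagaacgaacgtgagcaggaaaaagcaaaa
The long transcript of Neat1 held 0 runs of at least 8 A, and no entry of the table had its length. The Neat1 values are those of a 3177-base entry, whose sequence the long form contains, so reads of the forms cannot be told apart. A GenBank entry of 795 bases, AK020134, had 79.2% as many reads as the RefSeq entry of Malat1, from 68.3% to 83.1% over the libraries, on 11.4% of its length. The 1541-base entry AK018202 had 97.6% as many as the RefSeq entry of Neat1, and at least 92.9% in every library.

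Levels are given as deposited, in RPKM, the number of reads normalised to transcript length and to the mapped reads of the library. Fold changes are differences of log2(RPKM + 0.1) after scaling of the libraries. Whole read numbers could be recovered from the steps of the RPKM values. The libraries held 1391832 to 5423840 mapped reads, with KD 24 h replicate 6 the shallowest, apart from NC 72 h replicate 6, whose 5926375 reads lay almost wholly in even numbers per entry and were counted in pairs. Replicates 2 and 3 of NC at 72 h differed by less than the sampling noise, with 0.35 times the squared difference that counting gives against at least 1.99 in any other pair, and were averaged into 1 sample, which leaves 5 in that group. The libraries fell into a cluster of 16 and a cluster of 8, present in all 4 groups, by their deviations from the group means. What separates the clusters is not given in the labels, and results that depend on them are given within each. The smaller cluster held KD replicates 3 and 4 and NC replicates 5 and 6 at 24 h. At 72 h it held KD replicates 5 and 6 and NC replicates 4 and 5. The clusters were drawn from these same expression values, so results within them are a description and not a separate test. All 6 adipocyte and 5 brite markers were present. Ucp1, the uncoupling protein of brown and brite fat, was lower in KD by 1.15 on the log2 scale at 24 h and by 2.37 at 72 h, and was 2.49 higher in NC at 72 h than at 24 h. Of 5 brite markers, 4 were lower in KD at 24 h and 5 at 72 h, and 3 were higher with time in NC. Of 6 general adipocyte markers 4 were lower in KD at 24 h and 3 at 72 h, among them Adipoq (-0.55 and -0.96), while Fabp4 was called at 72 h only (-0.58). Beside these marker counts, 11.6% of all symbols were called lower in KD at 24 h and 13.0% at 72 h, and 5.01% higher over time in NC. Among markers of other cells, the summed immune level had medians of 3.01 and 7.83 RPKM in KD and NC at 24 h and 2.77 and 9.05 at 72 h, and endothelial markers summed to at most 1.32 RPKM in any library. The immune marker Lyz2 was lower in KD at 72 h (-3.68, adjusted p = 0.00065), with scaled means of 14.08 ± 9.59 in NC and a low 1.22 ± 1.41 in KD. Lyz2 passed the filter on low values through NC, where it is high, and its fitted size depends on the constant added before the log. Mesothelial and epithelial markers summed to 0 in every NC library, to 0 to 0.34 RPKM in KD at 24 h and to 0.566 to 2.11 in KD at 72 h, with Upk3b at 0 throughout. Preadipocyte markers summed to 319 to 959 RPKM, and 1 of them, Cd34, was higher in KD at 72 h (2.02, adjusted p = 0.00146). Its scaled means were 0.427 ± 0.275 in NC and 1.875 ± 0.608 in KD, and it passed the filter on low values only through KD, where it is high. The part of these cells in the results below was not tested, and in bulk RNA fewer cells of a type and less RNA per cell cannot be told apart.

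The targeted RNA was low. Ctcflos (NR_040321) was covered by 0 to 6 reads in the KD libraries at 24 h and 3 to 20 in NC, with mean levels of 0.189 ± 0.244 and 0.741 ± 0.515 RPKM (SD, n = 6 each). The KD mean was 0.25 times the NC mean, and the libraries overlapped (p = 0.0455, two-sided exact permutation test, 0.136 after Benjamini-Hochberg adjustment over 6 such tests). This p rose to between 0.0520 and 0.0909 when any of KD 24 h replicates 1, 2, 3 and 5 or NC 24 h replicates 1, 3, 4 and 5 was left out. At 72 h the means were 0.231 ± 0.220 (n = 6) and 1.23 ± 0.408 RPKM (n = 5), and all KD libraries lay below all NC libraries. Its fitted difference of -2.49 ± 0.48 (SE, log2, adjusted p = 0.00221, limma) rests on an entry that passed the filter on low values only through the NC libraries.

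**Figure D1:**
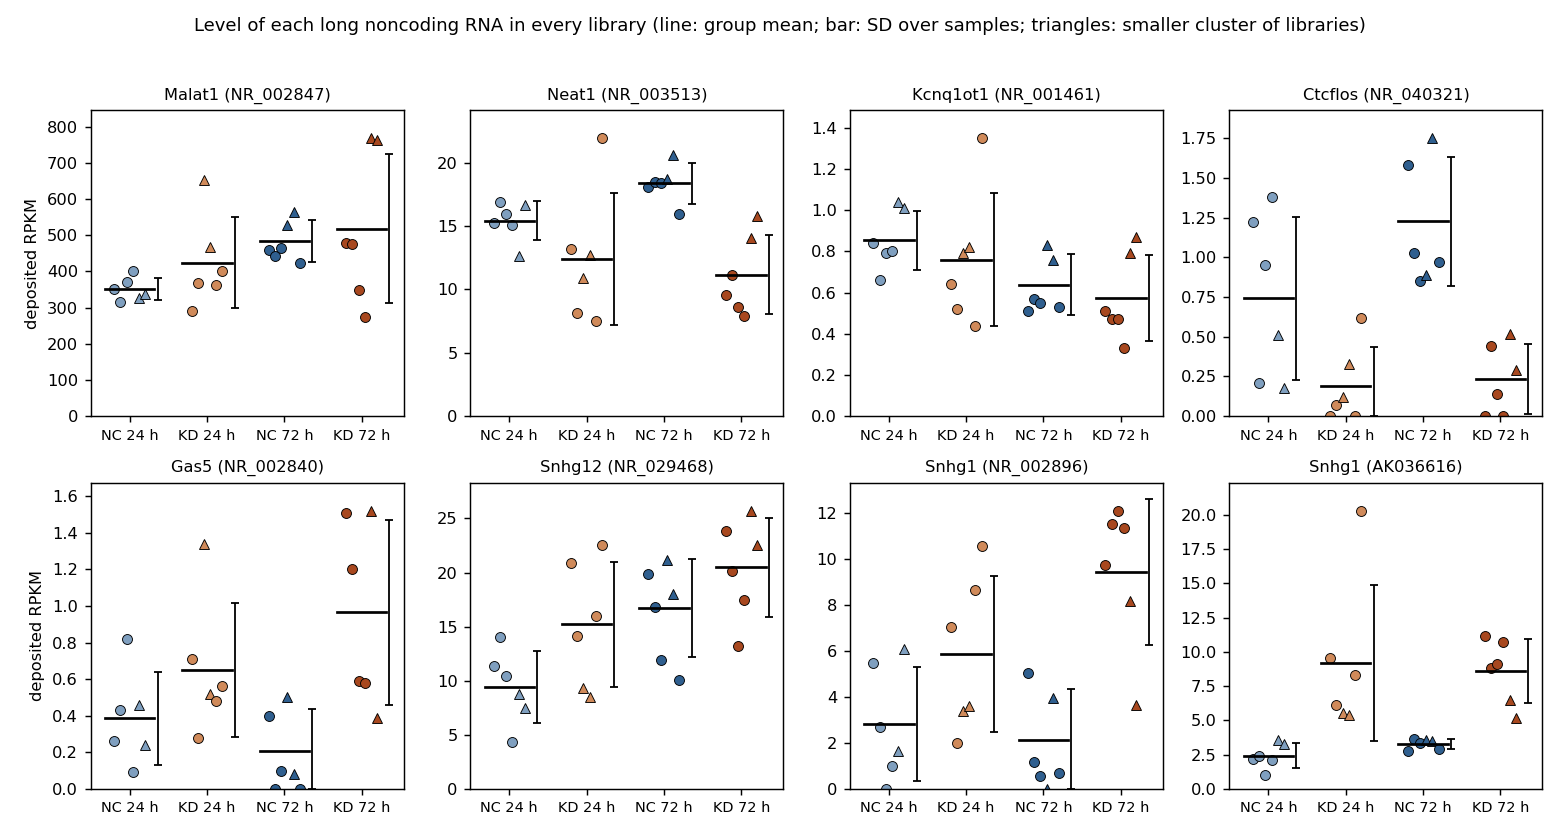
Level in deposited RPKM (y axis, linear, from 0) of the entries of the 6 RNAs, the long Snhg1 entry AK036616 and Ctcflos in every library, by group, with a line at the group mean, a bar for the SD over samples and triangles for the smaller cluster of libraries. Malat1 lies between 274 and 768 RPKM, Neat1 in KD at 72 h lies below NC in every library, and Gas5 and the short Snhg1 entry are at 0 in some.

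The RNAs differed in level by over 2 orders of magnitude, and the name abundant held for only some of them. In NC at 24 h the order of mean RPKM, a measure per length, was Malat1 (351), Neat1 (15.4), Snhg12 (9.39), Snhg1 (2.82), Kcnq1ot1 (0.854) and Gas5 (0.385). Malat1 did not overlap with the next RNA in any group. Each of the other neighbours in that order overlapped in their ranges over libraries. In NC at 72 h Neat1 (18.4) and Snhg12 (16.7) overlapped, both lay above Snhg1 (2.12), and Kcnq1ot1 (0.638) lay above Gas5 (0.208) in every sample. In KD the order of Snhg12 and Neat1 was the other way around, at 15.2 and 12.4 RPKM at 24 h and 20.48 and 11.2 at 72 h, with overlap at both times. In KD at 72 h Gas5 (0.965) also stood above Kcnq1ot1 (0.574), in 5 of 6 libraries. In reads, the median library held 11517.5 of Malat1, 211 of the long Kcnq1ot1, 168 of Neat1, 35.5 of Snhg12, 7.5 of Snhg1 and 5.5 of Gas5. Gas5 and the RefSeq entry of Snhg1 were therefore not abundant here, and their values carry a large counting error.

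Of the 6 RNAs, limma tested 4 between KD and NC at 24 h and called 0, where 22.7% of all entries tested were called at an adjusted p under 0.05. At an unadjusted p under 0.05 there were 2, Neat1 and Snhg12. The share of all entries at that unadjusted threshold is not given here, so this count is no result about the RNAs. Voom on the recovered reads called 1, Neat1, where it called 12595 of 52006 entries. At 72 h 2 of 5 were called, with 22.5% of all entries called. These were Neat1, which was lower, and the short entry of Snhg1, which passed the filter on low values only through KD, where it is high. Between NC at 24 h and NC at 72 h 1 of 4, Malat1, was called, with 9.15% of all entries called. The difference between the knockdown effects at the different times was called for 0 of 5, with 0.202% of all entries called. None of these 5 had an unadjusted p under 0.05, and voom also called 0. The knockdown and time comparisons share the NC libraries.

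**Figure D2:**
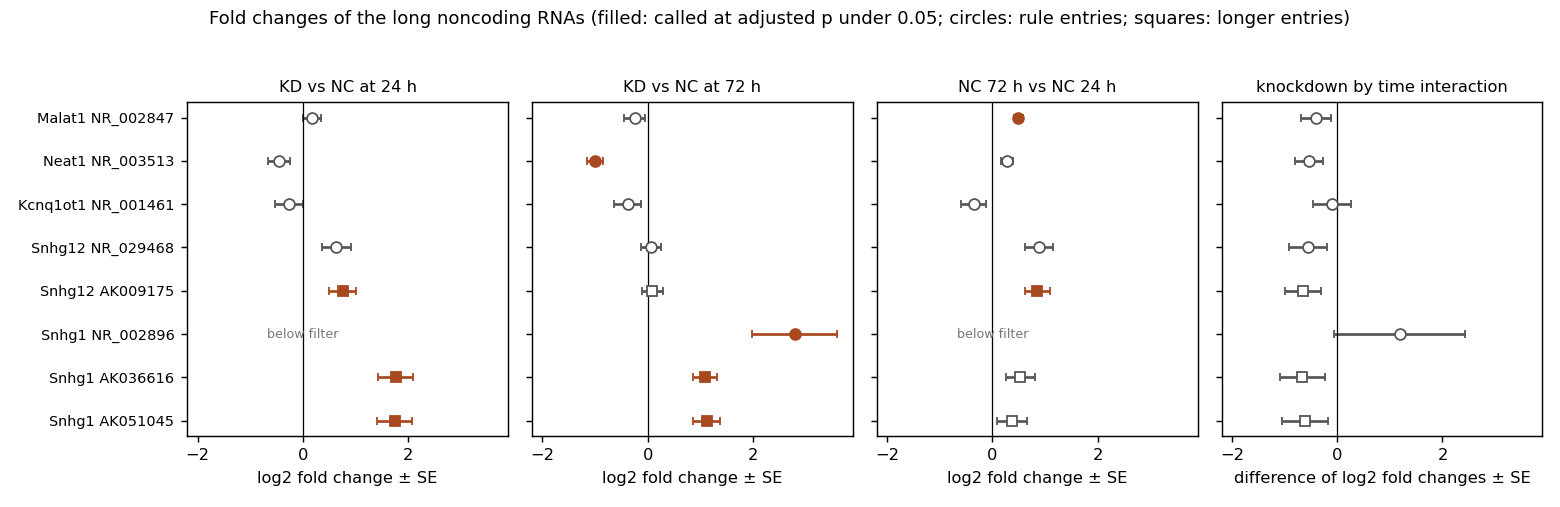
Log2 fold change (x axis, bars: SE) of the RNAs and of the longer Snhg12 and Snhg1 entries (squares), with panels for KD against NC at 24 h and at 72 h, NC at 72 h against NC at 24 h, and the difference between the knockdown effects. Filled symbols were called by limma. Neat1 stands at -1.002 at 72 h and Malat1 at 0.49 over time in the controls.

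Malat1 (NR_002847) was the highest of the 6 and rose with time in the control cells. Its level in NC was 316 to 401.5 RPKM at 24 h (median 345) and 423 to 564 RPKM at 72 h (median 459), and every sample at 72 h lay above every sample at 24 h, as 3.58% of all entries did. The scaled means were 348 ± 30.5 (n = 6) and 490 ± 56.3 (n = 5), a log2 fold change of 0.49 ± 0.08 (adjusted p = 0.00202, limma), or 1.38 times in deposited RPKM. Of its 6 entries 2 were called higher, where 4.64% of all entries were. The 795-base entry AK020134 rose by 0.52 ± 0.09 (adjusted p = 0.00125), and the other 4 entries were not called, with log2 fold changes from -0.08 to 0.31. The rise was 0.35 within the larger cluster of libraries (adjusted p = 0.0198) and 0.69 within the smaller (adjusted p = 0.00462).

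The knockdown left no called difference in Malat1. At 24 h KD spanned 292 to 653 RPKM (median 384) around the NC values, with a log2 fold change of 0.17 ± 0.18 (adjusted p = 0.499). At 72 h KD spanned 274 to 768 RPKM (median 478), wider than NC on both sides, with a log2 fold change of -0.25 ± 0.20 (adjusted p = 0.402). The SD over KD libraries was 126 RPKM at 24 h and 207 at 72 h against 31.2 and 58.0 in NC. The highest KD libraries were replicates 3 and 4 at 24 h and 5 and 6 at 72 h, and these 4 make up the KD part of the smaller cluster. At 24 h the fold change was -0.13 within the larger cluster (adjusted p = 0.472) and 0.75 within the smaller, where it was called (adjusted p = 0.0260). At 72 h the values were -0.42 (adjusted p = 0.0650) and 0.16 (adjusted p = 0.404). The difference between KD and NC in Malat1 thus had opposite signs in the clusters at both times, a contrast that was itself not tested. Because the clusters were drawn from these same data, the call within the smaller cluster is no separate support for an effect.

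Neat1 (NR_003513) was lower after the knockdown at 72 h. Its level was 15.99 to 20.6 RPKM in NC (median 18.5) and 7.90 to 15.8 RPKM in KD (median 10.4), and no KD library reached the lowest control, a pattern that 7.75% of all entries showed in this direction. The scaled means were 20.2 ± 1.78 (n = 5) and 10.2 ± 2.18 (n = 6), a log2 fold change of -1.002 ± 0.15 (adjusted p = 0.000459, limma), and the ratio of mean deposited RPKM was 0.61. The fall was called in 6 of the 7 Neat1 entries, at -1.29 to -1.002, where the background of entries called lower was 12.1%. Entries of 1 gene overlap and are not independent. Of those called, 3 held the same total of 4227 reads and others held 4223 and 4126, so the count of calls is not separate support. AK033579, which holds 23.6% as many reads as the RefSeq entry, fell by 1.29 (SE 0.22, adjusted p = 0.00108). Within the larger cluster the fold change of the RefSeq entry was -1.12 (adjusted p = 0.000484), and within the smaller it was -0.73 (adjusted p = 0.0450).

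At 24 h Neat1 spanned 12.7 to 16.9 RPKM in NC (median 15.6) and 7.53 to 21.9 RPKM in KD (median 11.8). Of the KD libraries, 5 stood at 13.2 RPKM or less, and replicate 6, the shallowest library, was the highest of all 12. The log2 fold change was -0.45 ± 0.21 (adjusted p = 0.124). Without KD 24 h replicate 6 it was -0.61 and passed the threshold (adjusted p = 0.0153). The 7 entries of the gene ranged from -0.88 to -0.45 and 0 of 7 were called. The effect at 72 h minus that at 24 h was -0.54 ± 0.26 (adjusted p = 0.427), so a difference between the times was not shown. In the control cells Neat1 changed by 0.28 ± 0.11 over time (adjusted p = 0.137).

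**Figure D3:**
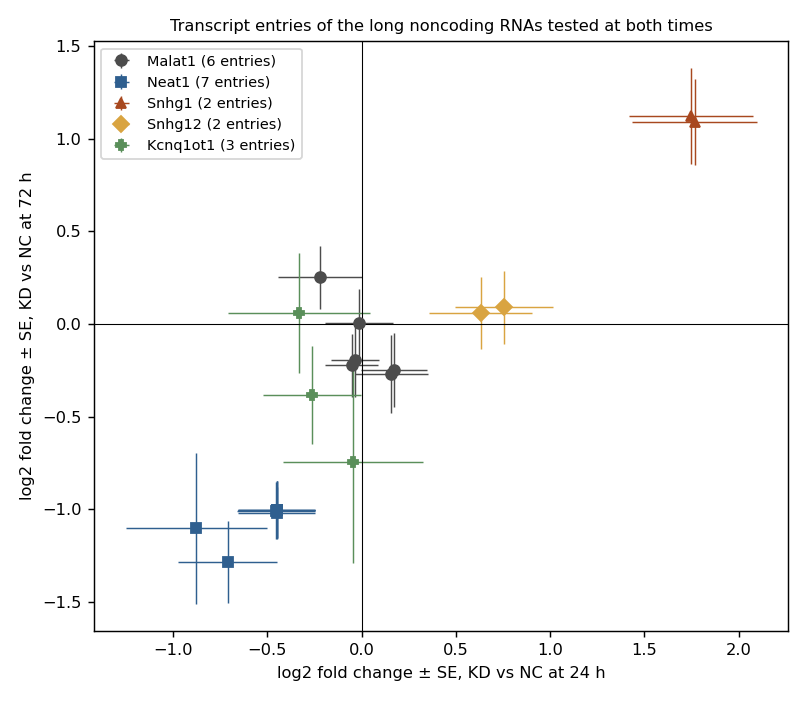
Log2 fold change of KD against NC at 24 h (x axis) and at 72 h (y axis) for each transcript entry tested at both times, with bars for the SE and a colour and symbol for each gene. Entries of Neat1 lie at -0.88 to -0.45 on the x axis and -1.29 to -1.002 on the y axis, and the long Snhg1 entries at 1.75 and 1.77 on the x axis and 1.09 and 1.12 on the y axis.

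Snhg1 was higher after the knockdown in its long entries at both times, with 2 of 2 entries tested at 24 h called higher and 4 of 4 at 72 h, where 11.1% and 10.4% of all entries were. At 72 h 2 of the 4 were short entries that passed the filter on low values only through KD. These 2 had the same length, the same total of 217 reads and the same fold change, and so are 1 measurement. The long entries are not independent of each other either, so the counts of entries called are not separate support. The short spliced entry NR_002896 (476 bases) held 217 reads over all libraries, while the 2728-base GenBank entry AK036616 held 1418. The length of AK036616 equals that of Snhg1-215, an annotated transcript of 2 exons with a retained intron, and the 2348-base AK051045 has the length of Snhg1-203, also with a retained intron. These matches are by length alone. GENCODE lists 14 retained-intron and 4 lincRNA transcripts for the gene.

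At 24 h AK036616 stood at 0.990 to 3.54 RPKM in NC (median 2.26, 9 to 49 reads) and 5.38 to 20.3 RPKM in KD (median 7.21, 70 to 110 reads). All KD libraries lay above all NC libraries, as in 4.73% of all entries. The scaled means were 2.46 ± 0.95 and 8.79 ± 4.79 (n = 6 each), a log2 fold change of 1.77 ± 0.33 (adjusted p = 0.00259, limma). KD 24 h replicate 6 was the highest, and without it the fold change was 1.53 (adjusted p = 0.00185). Its levels at 72 h were 2.77 to 3.57 RPKM in NC (median 3.46) and 5.19 to 11.1 RPKM in KD (median 8.97), again without overlap, as in 6.12% of all entries. The log2 fold change was 1.09 ± 0.23 (adjusted p = 0.00414). The larger cluster of libraries gave 2.29 (adjusted p = 0.00257) and 1.46 (adjusted p = 0.000369) at 24 h and 72 h, and the smaller gave 0.69 (adjusted p = 0.187) and 0.38 (adjusted p = 0.484). The entry was not called in the smaller cluster, whose few libraries cannot decide whether the effect differed there. AK051045, with 1307 reads, is not independent of it and gave 1.75 ± 0.33 (adjusted p = 0.00270) and 1.12 ± 0.26 (adjusted p = 0.00684). The difference of the knockdown effects was -0.67 ± 0.42 (adjusted p = 0.562), and in NC the entry changed by 0.53 ± 0.28 over time (adjusted p = 0.273).

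The short entry of Snhg1 had 0 to 23 reads a library. At 24 h it stood at 0 to 6.07 RPKM in NC (median 2.18) and 2.00 to 10.6 RPKM in KD (median 5.32), which overlapped (p = 0.110, two-sided exact permutation test, 0.221 adjusted). Its ranges at 72 h were 0 to 5.06 RPKM in NC (median 0.860) and 3.65 to 12.1 RPKM in KD (median 10.6). Of the KD libraries, 5 exceeded the highest control. It was called higher at 2.79 ± 0.81 (adjusted p = 0.0239, limma), but had 10 reads in 5 of 6 KD and 0 of 5 NC samples and so passed the filter only through KD, and the fitted size depends on the constant added before the log. The adjusted p was 0.0534 without NC 72 h replicate 6. The entry dropped out of the test when any of KD 72 h replicates 1 to 5 was left out. Over time in NC it did not differ beyond the spread of libraries (p = 0.632, two-sided exact permutation test, also 0.632 adjusted).

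Snhg12 (NR_029468, 606 bases) was near the threshold over time in the control cells and after the knockdown at 24 h. In each, 1 of its 2 entries was called higher, where 4.64% and 11.1% of all entries were. Its level in NC was 4.34 to 14 RPKM at 24 h (median 9.59) and 10.02 to 21.2 RPKM at 72 h (median 18.0), with overlap. The log2 fold change over time was 0.89 ± 0.27, which missed the threshold (adjusted p = 0.0505, limma), and the 933-base entry AK009175 passed it at 0.86 ± 0.24 (adjusted p = 0.0410). The RefSeq entry had 89.4% as many reads as AK009175, and the entries are not independent. Without NC 24 h replicate 2, NC 72 h replicate 3 or NC 72 h replicate 6 the RefSeq entry passed at 0.93 to 1.05. The call of AK009175 was lost without any of NC 24 h replicates 3 to 6 or NC 72 h replicates 1, 2, 4 and 5. After the knockdown Snhg12 stood at 8.49 to 22.5 RPKM at 24 h (median 15.1) and 13.2 to 25.7 RPKM at 72 h (median 21.4), both overlapping with NC. The log2 fold changes were 0.63 ± 0.27 (adjusted p = 0.108) and 0.06 ± 0.20 (adjusted p = 0.862). AK009175 was called at 24 h (0.75 ± 0.26, adjusted p = 0.0480), a call that was lost without any of KD 24 h replicates 1, 2, 5 and 6 or NC 24 h replicates 3 to 6.

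Gas5 (NR_002840, 2554 bases) was at the edge of detection, with 0 to 17 reads a library, and 0 of its 26 entries passed the filter on low values in any comparison of 2 groups. At 24 h its level was 0.0937 to 0.822 RPKM in NC (median 0.345) and 0.279 to 1.34 RPKM in KD (median 0.543), with means of 0.385 ± 0.254 and 0.650 ± 0.367 RPKM (n = 6 each, p = 0.173, two-sided exact permutation test, 0.260 adjusted). Without NC 24 h replicate 3, the highest control, this p was 0.0260. In NC at 72 h the level was 0 to 0.502 RPKM, with 2 libraries at 0 (median 0.0821), and 0.389 to 1.52 RPKM in KD (median 0.892). The means were 0.208 ± 0.228 (n = 5) and 0.965 ± 0.508 RPKM (n = 6), 4.63 times apart, with an exact p = 0.0130 (two-sided permutation test) that was 0.0779 after adjustment over the 6 tests. A difference was therefore not established for Gas5 at this depth, and over time in NC the exact p was 0.247. The Gas5 entry with the most reads, ENSMUST00000160516 (572 bases), stood at 1.95 ± 1.52 RPKM in NC and 6.43 ± 5.84 in KD at 24 h (n = 6 each), and at 2.68 ± 1.31 (n = 5) and 3.24 ± 2.06 RPKM (n = 6) at 72 h.

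Kcnq1ot1 (NR_001461, 83437 bases) showed no called difference in any comparison, although it had 111 to 438 reads a library. Its level was 0.656 to 1.03 RPKM in NC (median 0.820) and 0.445 to 1.35 in KD (median 0.715) at 24 h, and 0.507 to 0.833 (median 0.561) and 0.327 to 0.872 (median 0.490) at 72 h. The KD libraries spread on both sides of the controls. The log2 fold changes were -0.26 ± 0.26 (adjusted p = 0.485, limma) and -0.38 ± 0.27 (adjusted p = 0.326) for the knockdown and -0.36 ± 0.23 (adjusted p = 0.405) over time. Shorter entries of the gene that were tested ranged from -0.33 to -0.05 at 24 h and from -0.74 to 0.06 at 72 h.

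The neighbours of Kcnq1ot1 in its imprinted domain were read beside it. Of 6 tested, Osbpl5, an oxysterol-binding protein, was lower at 24 h (-0.95 ± 0.23, adjusted p = 0.00881), and 2 were higher at 72 h. These were Cdkn1c, an inhibitor of cyclin-dependent kinases, at 2.13 ± 0.33 (adjusted p = 0.000547), and Tnfrsf23, a decoy receptor, at 0.78 ± 0.21 (adjusted p = 0.0152). The median log2 fold change of the 6 was -0.02 at 24 h and 0.32 at 72 h, beside -0.01 for all symbols at both times, of which 11.2% were called higher and 11.6% lower at 24 h, and 10.4% and 13.0% at 72 h. The effect on Cdkn1c at 72 h exceeded that at 24 h by 1.90 ± 0.38 (adjusted p = 0.0338), a difference called for 0.268% of symbols. This call was lost in some of the fits that left out a library, as given under the flagged results. In NC Cdkn1c fell with time by 1.52 (SE 0.30, adjusted p = 0.00522). Kcnq1ot1 itself was not called in any of these comparisons.

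**Figure D4:**
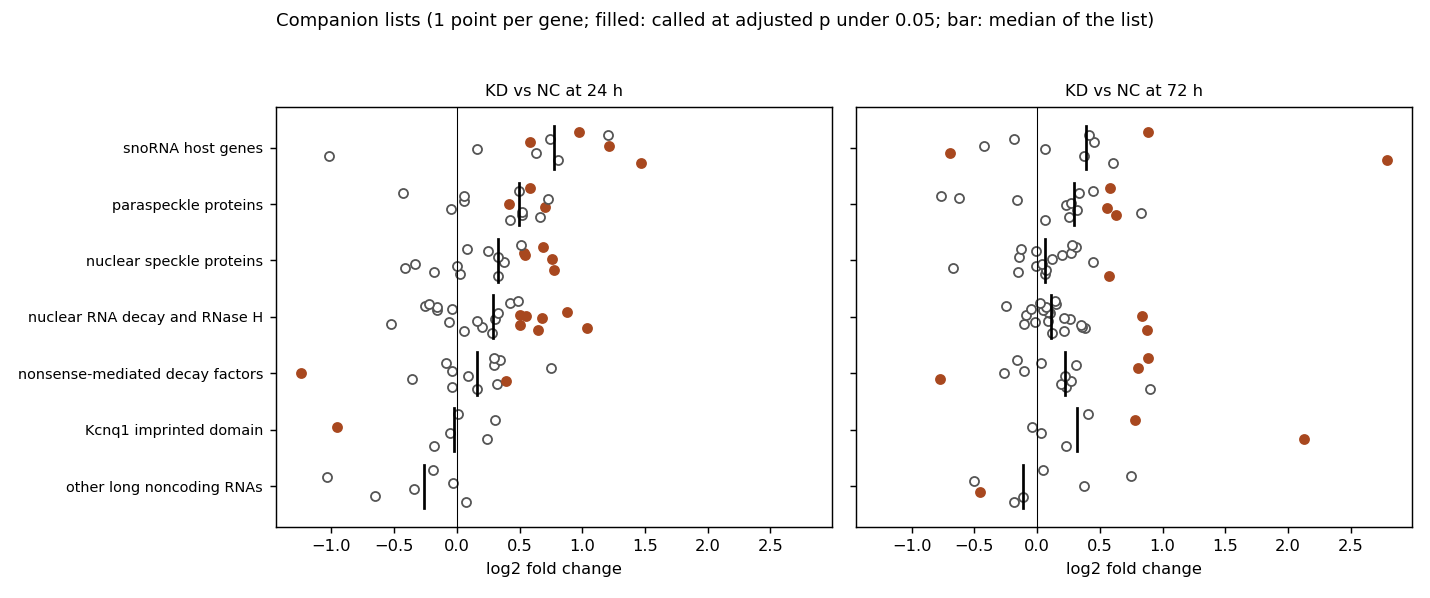
Log2 fold change of each measured gene in the lists read beside the 6 RNAs, for KD against NC at 24 h (left) and at 72 h (right), with filled points for genes called by limma and a bar at the median of the list. The snoRNA hosts have their median at 0.77 at 24 h and 0.39 at 72 h.

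Of 10 snoRNA hosts tested at 24 h, which include Snhg12, 4 were called higher after the knockdown and 0 lower, where 11.2% of all symbols were called higher and 11.6% lower. Their median was 0.77 beside -0.01 for the 11104 symbols tested. Dancr, named for antagonizing differentiation, stood at 1.47 ± 0.32 (adjusted p = 0.00532, limma), Snhg4 at 1.21 ± 0.19 (adjusted p = 0.000955), Snhg8 at 0.97 ± 0.21 (adjusted p = 0.00582) and Snhg5 at 0.58 ± 0.18 (adjusted p = 0.0321). At 72 h, with 10.4% of all symbols called higher and 13.0% lower, Snhg8 was higher at 0.88 ± 0.15 (adjusted p = 0.00119) and Snhg11 lower at -0.70 ± 0.22 (adjusted p = 0.0362). The short Snhg1 entry is also in this list, and the median was 0.39 with it and 0.37 without. The call of Snhg5 at 24 h was lost in 7 of the 12 fits that left out a library, and that of Snhg11 in 7 of 12. In NC over time the median of 9 was 0.55, and only Snhg5 was called, at 0.88 ± 0.16 (adjusted p = 0.00271), where 5.01% of symbols were called higher and 4.20% lower.
The starts of Snhg5, Snhg8 and Dancr are shown beside the 3 above because these hosts were called higher at 24 h. Snhg4 was also called but had no window. Other hosts that were not called are not shown, so a link between start and response was not tested. At 72 h Snhg5 stood at -0.18 and was not called.
Snhg5, chr9:88522878-88522937, minus strand: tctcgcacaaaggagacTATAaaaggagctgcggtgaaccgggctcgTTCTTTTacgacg
Snhg8, chr3:123508317-123508376, minus strand: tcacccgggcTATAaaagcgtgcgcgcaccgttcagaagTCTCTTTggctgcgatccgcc
Dancr, chr5:74093020-74093079, plus strand: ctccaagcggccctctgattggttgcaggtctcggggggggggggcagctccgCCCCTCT
Snhg5 and Snhg8 held both features, and Dancr held no TATA and a pyrimidine run that begins near the end of the stretch searched and goes on past the window shown. The counts called among long noncoding RNAs outside these groups were too small to be set apart from the shares of all symbols given above. Of 6 tested at 24 h 0 were called (median -0.26), of 7 at 72 h only Mir22hg was, at -0.45 ± 0.12 (adjusted p = 0.0145), and over time in NC only Meg3 was, at 0.82 (adjusted p = 0.0474), a call lost in 8 of the 12 fits that left out a library.

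The proteins of the nuclear bodies that Malat1 and Neat1 occupy were measured as RNA, with Sfpq and Clk1 read from noncoding RefSeq entries. The shares of all symbols called higher, 11.2% at 24 h and 10.4% at 72 h, are the background of the counts that follow, with 11.6% and 13.0% called lower. Among 13 paraspeckle proteins 3 were higher at 24 h and 0 lower (median 0.50), namely Hnrnpm (0.70), Tardbp (0.58) and Matr3 (0.42), all RNA-binding proteins. At 72 h 3 of 14 were higher and 0 lower (median 0.29), Ewsr1 (0.63), Tardbp (0.58) and Hnrnpm (0.56). A link to the lower level of Neat1 at 72 h was not tested, and Tardbp and Hnrnpm were already called at 24 h, when Neat1 was not. Members of this list that were not called went both ways, among them Sfpq (-0.77), Pspc1 (-0.62) and Nono (0.27). Among 16 nuclear speckle proteins 5 were higher at 24 h (median 0.33), including Pnn (0.78) and the splicing factors Srsf1 (0.76), Srsf6 (0.69) and Srsf11 (0.54), and 1, Acin1 (0.57), at 72 h (median 0.07), below the share of all symbols. The call of Matr3 was lost in 9 of the 12 fits that left out a library, and those of Srsf6 in 8, Acin1 in 5, Srsf1 in 4, Hnrnpm at 24 h in 2 and Tardbp at 72 h in 2. Within the smaller cluster at 24 h Hnrnpm stood at 0.13 (adjusted p = 0.715). In NC over time the medians were -0.18 and -0.13, with Smarca4 of the paraspeckle list lower (-0.68).

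Factors that degrade nuclear and spliced RNA were read because they act on these RNAs. The shares of all symbols called higher were 11.2% at 24 h and 10.4% at 72 h, and of those called lower 11.6% and 13.0%. Among 13 factors of nonsense-mediated decay 1 was higher (Rbm8a, 0.39) and 1 lower (Smg6, an endonuclease of this pathway, -1.24) at 24 h, below the shares of all symbols in both directions, with a median of 0.16. At 72 h Upf3b (0.88) and Smg8 (0.81) were higher and Smg1 (-0.77) lower, with a median of 0.22. Among 22 genes of nuclear RNA decay and RNase H 7 were higher at 24 h (median 0.29), including the exosome subunits Exosc2 (1.04) and Exosc10 (0.65), the RNase H subunit Rnaseh2a (0.88) and the RNA methyltransferase Mettl16 (0.68), and 2 at 72 h (median 0.11), Exosc10 (0.87) and Pabpn1 (0.84), a share near that of all symbols. Leaving out a library ended the call of Smg1 in 9 of 12 fits, Exosc10 at 24 h in 7, Rbm8a in 6, Smg8 in 5 and Mettl16 in 2. Rnaseh1, the enzyme that gapmers recruit, stood at 0.33 ± 0.21 at 24 h (adjusted p = 0.277) and 0.10 ± 0.20 at 72 h, which did not pass the threshold. In NC over time Xrn2 of the nuclear decay list was lower (-0.50).

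Across the 23 samples the RNAs did not follow a common pattern. Levels of Neat1 and Kcnq1ot1 correlated at r = 0.68, and their deviations from the group means at 0.77, while Malat1 and Neat1 gave 0.30 and 0.39. For Malat1 and Kcnq1ot1 the values were 0.24 and 0.58. Snhg1 and Snhg12 gave 0.22 and 0.10. These points share libraries, depth and the 2 clusters, and are given as a description. Of 8015 symbols with enough reads, the levels most like Neat1 were those of Celf2, Vac14 and Acyp2 (r = 0.90 each), those most like Kcnq1ot1 were Lman2 (0.86), Ncor1 (0.85) and Nedd4 (0.85), and those most like Snhg12 were Ube2e3 (0.81), Gng11 (0.78) and Smim1 (0.77). For Malat1 the nearest were Usp34 (0.68), Ltc4s (0.67) and Nr2c2 (0.66), lower than for the others. The short Snhg1 entry was nearest to Klhl26 (0.79), Prkaa1 (0.78) and Nars (0.71), from sparse counts that give no finding.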

How the data were processed

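RNA of 24 libraries was prepared by BRB-seq and sequenced on an Illumina NextSeq. According to the methods, the authors used the Genomatix suite and the NCBI Reference Sequence Database. The mapping settings and build of these libraries are not given in the sources used here. The deposited values are RPKM for 168326 overlapping GenBank, Ensembl and RefSeq entries, written with decimal commas, with 509 repeated accession rows. Overlapping entries of a gene share reads, so a read can count for several of them. Whole reads were recovered from the RPKM steps (95.1 to 95.6% of low values whole), and 90.9% of 23859 Ensembl entries had the GENCODE length.

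RPKM was scaled by trimmed means of log ratios (30% of ratios, 5% of levels trimmed). Entries that reached 10 reads in a number of samples equal to the smaller group, and 15 reads in total, were tested with limma 3.58.1 in R 4.3.3 on log2(RPKM + 0.1) with a trended prior and Benjamini-Hochberg adjustment over all entries, called at 0.05. For low entries a fold change on this scale can be smaller or larger than the ratio of means, above all where some values are 0. Entries below the filter were compared by exact permutation tests (scipy 1.17.1) of mean RPKM, 6 in all. Intervals and floors would cover counting error only, and PCR copies are not independent. In NC 72 h replicate 6 nearly all read numbers were even, with 14.9% odd, and its reads were halved for counting. The scripts were tested on simulated data. The members, lists and tests were chosen with earlier results of these data known. Genes named from a list are up to 4 called genes per comparison with the largest absolute fold change, and the genes most like an RNA are the 3 with the highest Pearson correlation. Start sequences are from RefSeq (GRCm38.p6) and matched 5 of the 6 genes by symbol, and the ends from GENCODE M21 on GRCm38. The GenBank entries' own sequences were not used here. Replicate numbers did not pair the libraries. A called gene of a decay list is not reported here.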

Additional observations from a re-analysis of the deposited data

Results flagged for a closer look

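In 36 groups of samples examined for a library far from the others, 1 was found, and chance alone gives about 1 in 20 groups. The long Snhg1 entry AK036616 stood at 20.3 RPKM in KD 24 h replicate 6, while the next library of that group was at 9.55 RPKM, a gap of 0.72 of the group's range over 6 libraries. This library is the shallowest, with 1391832 mapped reads, and it was also the highest of its group for Neat1, Snhg12 and Kcnq1ot1. Without it the log2 fold change of AK036616 at 24 h was 1.53 (adjusted p = 0.00185, limma) against 1.77 with it.

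Among the genes read beside the 6 RNAs, the effect of the knockdown on Cdkn1c, a neighbour of Kcnq1ot1, differed between the times. The effect at 72 h exceeded that at 24 h by 1.90 ± 0.38 on the log2 scale (adjusted p = 0.0338, limma interaction). The call was lost in 9 of the 24 fits that left out a library, where the value was 1.70 to 2.14. For Kcnq1ot1 the same difference was -0.11 ± 0.36 (adjusted p = 0.938).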

How the results depend on the processing

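Neat1 at 72 h was called under all 13 other settings (-1.12 to -0.73) and all 12 fits without a library (-1.08 to -0.94), and Malat1 over time in NC likewise (0.35 to 0.69 over the settings). The long Snhg1 entry kept its call except within the smaller cluster. Of the members, 0 were called at 24 h, but 1 with voom on the recovered reads (Neat1, adjusted p = 0.0433), 1 within the smaller cluster (Malat1) and 2 with the entry of most reads in each gene (0 to 1 without a library). At 72 h the count was 2, but 1 with the replicate block, where the short Snhg1 entry had an adjusted p of 0.0515, 1 with NC replicates 2 and 3 kept separate and 1 within the smaller cluster (1 to 2 without a library). Over time in NC it was 1, but 2 with pseudocounts of 0.5 or 1, RefSeq entries only, separate replicates, voom, the smaller cluster, the cluster as a term, or the entry of most reads (1 to 2 without a library). The difference between times stayed at 0 in all 14 settings and without any library. The replicate block, whose numbers did not pair libraries (mean correlation of deviations 0.01), called 8745 entries at 24 h (11822 without it), 8245 at 72 h (12170), 2920 over time (4822) and 30 for the difference (120). Within the smaller cluster these counts were 1562, 5842, 1799 and 1849. Unscaled RPKM moved the median entry at 72 h from 0.01 to 0.25 and the share of calls that were higher from 46.2% to 80.9%. Signs reversed for values near 0. Malat1 gave -0.13 in the larger cluster at 24 h, and at 72 h 0.16 in the smaller and 0.0024 unscaled. Snhg12 at 72 h gave -0.0279 in the smaller cluster and -0.11 to 0.168 without a library, lowest without NC 72 h replicate 6 (AK009175 -0.0791 to 0.201). The Kcnq1ot1 difference between times gave 0.0459 unscaled, 0.0586 in the smaller cluster and -0.218 to 0.0304 without a library, highest without KD 24 h replicate 6. The short Snhg1 entry at 24 h gave -0.36 RPKM in the smaller cluster, Cebpa at 72 h 0.0104 there, and Rnaseh1 -0.0625 and -0.17 there at 24 h and 72 h. Without a library Rnaseh1 gave -0.0688 to 0.211 at 72 h, lowest without NC 72 h replicate 1, and from -0.0341 over time, lowest without NC 24 h replicate 1. The cause was not tested. Depth limits Gas5 and the short Snhg1 entry.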
